A study of Mus musculus with 7 samples.

Results

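F-box genes were compared between ovulated mouse oocytes that lacked Nlrp2 and wild-type (WT) oocytes. Members were the genes of the deposited table whose symbol is Fbxw, Fbxo or Fbxl followed by a digit, which gave 78 of 18951 genes. They fell into the 14 genes from Fbxw13 to Fbxw28, 8 other Fbxw genes, 37 Fbxo genes and 19 Fbxl genes. The symbol of 1 of these, Fbxl12os, is that of an antisense transcript rather than of an F-box protein. Fbxw23 and Fbxw25 were not analysed here. The symbol chose the 78 genes, but the Fbxw13 to Fbxw28 genes were selected on their null-minus-WT differences in these same data, in which they had been seen to be lower, so those differences are a description without a test.

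The study pooled oocytes of C57BL/6 females at 4 weeks of age and measured their RNA in 3 WT pools and 4 pools of the genotype labelled Nlrp2-Null. A pool combined about 150 oocytes of 3 to 4 females of 1 genotype, collected from the oviduct and freed of cumulus cells with hyaluronidase. The NLR family member NLRP2 is made in the growing oocyte and is needed from the mother for normal early development. The labels used here do not give the Nlrp2 allele itself or a hormone treatment.

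An F-box protein is the exchangeable part of an SCF ubiquitin ligase, which is built on the cullin CUL1, the adaptor SKP1 and the RING protein RBX1. Its F-box holds SKP1 and its other domain holds the substrate: WD40 repeats in Fbxw proteins, leucine-rich repeats in Fbxl proteins and various domains in Fbxo proteins. In the egg, protein turnover by SCF ligases works beside that by the anaphase-promoting complex (APC/C), and EMI2, the product of Fbxo43, holds the egg in metaphase II by inhibiting the APC/C. Mouse chromosome 9 carries a large cluster of Fbxw genes, several of which are known as oocyte transcripts.

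Of the 14 genes from Fbxw13 to Fbxw28, 13 lay on the minus strand of chromosome 9 between 109139447 and 109790670 (GRCm38), a stretch of 651 kb. No other gene with a mean normalised count of at least 10 lay between them. On chromosome 9 as a whole, 15 Fbxw genes are annotated. Fbxw17 lay apart, on the plus strand of chromosome 13 between 50417864 and 50433780. The sequences just before the transcription start are shown for 5 of these genes, because they set Fbxw17 apart from the cluster. Fbxw28 and Fbxw14 had the lowest null values relative to WT and are near-identical, Fbxw24 was the most abundant gene, and Fbxw20 was among the 2 cluster genes with the smallest difference. RefSeq promoters (GRCm38.p6, 250 bases before to 50 after the start) were found for 11 of the 14 genes, not for Fbxw13, Fbxw22 and Fbxw27. The 120 bases before the start are given 5′ to 3′, with matches to CAGCTG and AAATCTTTGGCC in capitals. They span chr9:109339660-109339779 for Fbxw28, chr9:109287677-109287796 for Fbxw14, chr9:109626060-109626179 for Fbxw24 and chr9:109234755-109234874 for Fbxw20, all on the minus strand, and chr13:50417744-50417863 on the plus strand for Fbxw17.
Fbxw28: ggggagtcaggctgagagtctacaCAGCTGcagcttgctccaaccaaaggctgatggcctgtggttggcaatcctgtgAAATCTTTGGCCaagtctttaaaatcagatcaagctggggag
Fbxw14: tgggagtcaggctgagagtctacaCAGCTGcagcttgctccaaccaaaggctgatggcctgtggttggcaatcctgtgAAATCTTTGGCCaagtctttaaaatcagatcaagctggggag
Fbxw24: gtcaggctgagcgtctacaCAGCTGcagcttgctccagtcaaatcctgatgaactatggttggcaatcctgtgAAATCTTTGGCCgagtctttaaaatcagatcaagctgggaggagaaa
Fbxw20: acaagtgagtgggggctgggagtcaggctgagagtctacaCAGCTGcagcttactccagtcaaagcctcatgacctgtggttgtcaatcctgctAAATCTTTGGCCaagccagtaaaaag
Fbxw17: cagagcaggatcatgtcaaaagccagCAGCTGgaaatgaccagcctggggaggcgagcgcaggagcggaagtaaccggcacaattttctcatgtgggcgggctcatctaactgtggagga

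Over the 300-base promoters, the 45 pairs of chromosome 9 genes were 74.0% to 97.3% identical, with a median of 88.0%, and Fbxw28 and Fbxw14 formed the closest pair. The 10 pairs with Fbxw17 were 42.0% to 56.3% identical, with a median of 48.2%. The run AAATCTTTGGCC was picked as the longest that all 10 chromosome 9 promoters hold before the start, so its 10 of 10 there follows from that choice. It was not found in the promoter of Fbxw17. On either strand, 12 of the 27025 RefSeq promoters held it (0.0444%), and the other 2 belonged to Gm40505 and Olfr829. CAGCTG, one spelling of the E-box CANNTG to which basic helix-loop-helix factors bind, stood in 11 of 11 promoters of the group, Fbxw17 included, against 16.1% of all promoters and 9 of 46 promoters of other F-box genes. TTTAAAA stood in 9 of 11 promoters of the group against 8.65% of all. These 3 strings were chosen after the promoters had been read. Since the chromosome 9 promoters are so alike, counts out of 11 are not counts of independent promoters.

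Other strings were chosen for what they are known to bind. CATCTG, another spelling of the E-box, stood in 7 of 11 promoters of the group against 17.2% of all promoters, and the general form CANNTG, which includes both spellings, stood in 11 of 11 against 72.1%. The TATA box TATAAA stood in 0 of 11 against 14.2%. The NOBOX-type strings TAATTG and TAATTA also stood in 0 of 11, against 8.15% and 5.31%. The LHX8-type string TGATTG stood in 2 of 11 against 14.4%, the GC box GGGCGG in 2 of 11 against 35.9%, and CCAAT in 1 of 11 against 37.9%. All were searched on both strands, and each is a match of letters only. Counts out of 11 again include the alike promoters of chromosome 9.

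The cluster genes were abundant in WT oocytes. Levels of different genes were compared as normalised counts per kilobase of annotated exon, where the 13 chromosome 9 genes lay between 2529 and 30550 with a median of 5666 (means of 3 WT pools). Fbxw24 had the highest level, 30550 ± 5788 per kilobase (SD, n = 3), which placed it at rank 65 of 14931 genes. Fbxw28 followed at 22523 ± 2365, Fbxw22 at 11694 ± 1483 and Fbxw14 at 8689 ± 849. Fbxw19 (5666 ± 303) and Fbxw15 (5614 ± 864) stood next to each other in the middle of the order and differed by less than their SD. Fbxw27 had the lowest level on chromosome 9, 2529 ± 331 per kilobase, which 9.08% of genes exceeded. Fbxw17 stood far below the cluster at 104 ± 27.5 per kilobase.

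Other F-box genes were mostly lower. The median WT level per kilobase was 257 over 8 other Fbxw genes, 390 over 36 Fbxo genes and 361 over 18 Fbxl genes. The highest of them was Fbxo43 at 6408 ± 908 per kilobase, next to Fbxo11 at 6401 ± 697, and the pair differed by less than their SD. Fbxo34 (5809 ± 484), Fbxo28 (5109 ± 384), Fbxo30 (4197 ± 301) and Fbxo18 (3315 ± 204) completed the 6 highest. These 6 genes overlapped the range of the chromosome 9 genes, and none of the other Fbxw genes reached it.

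**Figure D1:**
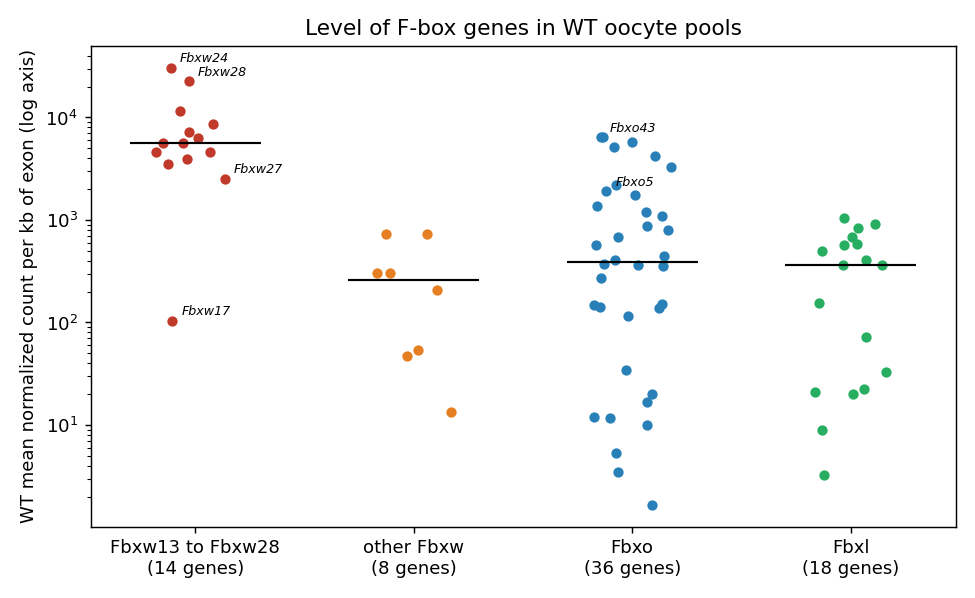
Mean normalised count per kilobase of exon in 3 WT pools (log axis) for the 76 tested F-box genes, 1 point a gene, with bars at the medians. The chromosome 9 genes lie between 2529 and 30550, Fbxw17 lies at 104, and the highest gene outside the group, Fbxo43, lies at 6408.

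Reads counted to genes numbered 71073973 to 96330083 per library. Nlrp2 served as the check of the labels and had normalised counts of 15527, 20130 and 16792 in WT pools 1 to 3 and of 107, 8.19, 1.96 and 63.8 in null pools 1 to 4, a log2 difference of -9.70 (limma adjusted p = 7.0e-05, Benjamini-Hochberg over 15071 genes). Oocyte markers had a mean log2 level of 14.51 to 14.63 in the pools. It was 14.58, 14.59 and 14.58 in WT pools 1 to 3. In null pools 1 to 4 it was 14.63, 14.63, 14.52 and 14.51. The mean of markers of cumulus and granulosa cells, the companions of the egg, ranged from 7.88 to 9.79. The cumulus mean was highest in null 4 (9.79), null 3 (9.27) and WT 1 (9.22). Library numbers in the labels run in a lower range for WT 1, WT 2, null 1 and null 2 and in a higher range for WT 3, null 3 and null 4. The labels do not say what that range stands for.

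On chromosome 9, the mean of the null pools was below that of the WT pools for 13 of 13 genes, with log2 differences from -0.47 to -0.08 and a median of -0.34. Summed over the 13 genes, normalised counts were 193869, 229141 and 235122 in WT pools 1 to 3 and 194877, 174281, 153816 and 163777 in null pools 1 to 4. WT 1 and null 1 held nearly the same sum, WT 2 and WT 3 held more, and the other null pools held less. The means were 219377 ± 22292 (SD, n = 3) in WT and 171688 ± 17573 (SD, n = 4) in null pools, a ratio of 0.783. Over all 15071 tested genes the median difference was 0.01, with 49.3% of genes lower in null pools. The oocyte markers had a median difference of 0.03 in the same pools. In bulk RNA, fewer cells of a type and less RNA per cell cannot be told apart.

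Fbxw28 and Fbxw14 had the largest differences. Fbxw28 had normalised counts of 38673, 47257 and 45899 in the WT pools and of 37911, 30726, 29528 and 28911 in the null pools, a log2 difference of -0.47 ± 0.10 (SE). Fbxw14 had 16695, 18147 and 20263 against 15684, 13593, 12692 and 12064, a difference of -0.45 ± 0.10. In both genes every null pool was below every WT pool, with null 1 just under WT 1. Their transcripts share sequence: of the 50-base words of Fbxw14, 65.1% also stand in Fbxw28, so reads of the pair may have been assigned to either gene. Their sum was 55368, 65404 and 66162 in the WT pools against 53595, 44319, 42219 and 40975 in the null pools, and without the pair the ratio of the cluster sums was 0.805. The other 11 genes of the cluster shared 5.77% to 15.4% of their 50-base words with some other gene, while 48 of the 64 F-box genes outside the group shared none. Between the transcripts of the cluster, identity ran from 77.2% to 95.7% with a median of 83.3% over 78 pairs, against 56.6% to 58.6% for pairs with Fbxw17.

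Fbxw21 and Fbxw16 also had no overlap between groups. Fbxw21 had 9703, 11875 and 11885 normalised counts in the WT pools against 8796, 9235, 7368 and 8417 in the null pools (log2 difference -0.40 ± 0.11, SE). Fbxw16 had 5557, 6751 and 6901 against 5348, 5000, 4435 and 4850 (-0.38 ± 0.12). In both, the highest null pool came close to WT 1, the lowest WT pool. Fbxw16 overlaps the opposite-strand gene Gm42494 in its exons, and whether counting used strand is not known here. The 4 genes without overlap were 4 of 13, where 5.16% of all tested genes had every null pool below every WT pool. Among the 3061 genes at least as abundant as the lowest cluster gene, that share was 8.27%, and 57.7% of them were lower in null pools. Since the group was chosen for this contrast, nothing is read from these counts.

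In Fbxw22, Fbxw24 and Fbxw15 the groups overlapped through WT 1, the lowest WT pool. Fbxw22 had 18508, 21996 and 23870 in the WT pools against 18805, 16297, 15122 and 14874 in the null pools (-0.40 ± 0.11). Fbxw24 had 35882, 47925 and 52567 against 38837, 38863, 33773 and 35675 (-0.29 ± 0.11). Fbxw15 had 7232, 9785 and 8163 against 7642, 7312, 5371 and 6481 (-0.33 ± 0.13). In Fbxw22 only null 1 was above WT 1, while in Fbxw24 and Fbxw15 null 1 and null 2 were. The difference of Fbxw24 was -0.18 without WT 3 and -0.45 without WT 1, and that of Fbxw15 was -0.21 without WT 2. Fbxw15 overlaps the opposite-strand gene Gm42756.

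In Fbxw13, Fbxw26, Fbxw19 and Fbxw18 the overlap came from null 1 alone. Fbxw13 had 6902, 5682 and 5336 in the WT pools against 6016, 4941, 3455 and 3644 in the null pools (-0.43 ± 0.17). Fbxw26 had 11021, 12396 and 11357 against 11262, 10687, 7309 and 7888 (-0.34 ± 0.14). In Fbxw13, WT 1 was the highest pool, and in both genes null 3 and null 4 lay far under the other pools. Fbxw19 had 19462, 20933 and 18880 against 19131, 14967, 14854 and 14982 (-0.31 ± 0.10). Fbxw18 had 9745, 11371 and 11680 against 10939, 8445, 7249 and 9337 (-0.29 ± 0.13). In Fbxw19 the other 3 null pools lay close together, and the difference of Fbxw18 was -0.20 without null 3.

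Fbxw20 and Fbxw27 had the smallest differences of the cluster. Fbxw20 had 10421, 10214 and 13025 in the WT pools against 9648, 9348, 9016 and 12097 in the null pools (-0.16 ± 0.12), which was -0.05 without WT 3 and -0.26 without null 4. Fbxw27 had 4069, 4808 and 5296 against 4860, 4866, 3645 and 4557 (-0.08 ± 0.13). In Fbxw20 null 4 was above both WT 1 and WT 2, and in Fbxw27 only null 3 was outside the WT range. Fbxw17, on chromosome 13, had 502, 293 and 394 against 410, 486, 328 and 795, a difference of 0.30 ± 0.33 in the other direction that was 0.06 without null 4. Over the group of 14, 13 were lower in null pools and the median was -0.33.

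**Figure D2:**
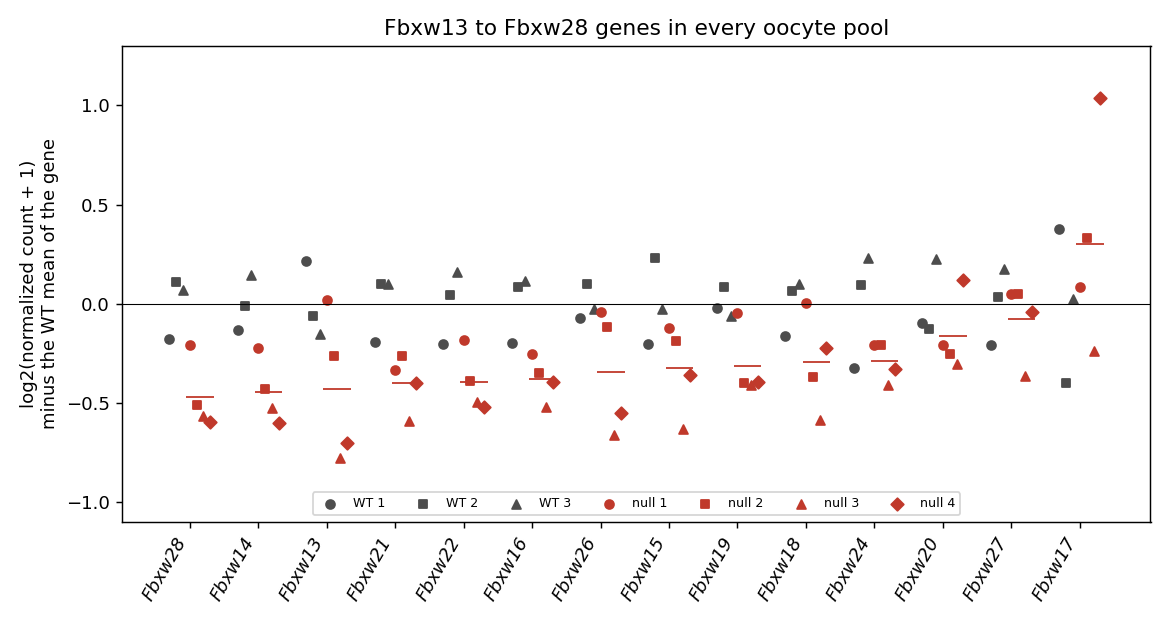
Log2(normalised count + 1) of each Fbxw13 to Fbxw28 gene in each pool minus the gene's WT mean, with grey symbols for 3 WT pools, red symbols for 4 null pools and red bars at the null means. The null means of the 13 chromosome 9 genes lie between -0.47 and -0.08. Either null 3 or null 4 is the lowest pool in each of these 13 genes, and null 1 often lies within the WT range.

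The order of the pools recurred from gene to gene. Null 3 held the lowest value of 10 of the 13 chromosome 9 genes and null 4 that of the other 3. WT 3 held the highest value of 8, WT 2 of 4 and WT 1 of 1. The number of genes below all WT pools was 5 in null 1, 10 in null 2, 13 in null 3 and 11 in null 4. The cluster genes were chosen as lower in null pools, and their sequences are alike. Nothing is therefore read from these counts of lowest, highest and lower values, and no share over all genes was taken beside them. After the mean of each genotype was taken off, the log2 values of 2 cluster genes correlated over the 7 pools with a median Pearson r of 0.67 (78 pairs, described without a test). The median was 0.67 without Fbxw14 and Fbxw28. It was 0.06 over 1891 pairs of F-box genes outside the group and 0.41 over 78 pairs of the 13 of these that were as abundant as the lowest cluster gene. All genes share the same 7 libraries in these correlations.

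Differences in the cluster depended on the pools and on the library-number range. Within the lower range (2 WT, 2 null pools), 12 of 13 genes were lower in null pools with a median of -0.20. Within the higher range (1 WT, 2 null pools), 13 of 13 were lower with a median of -0.58. Without null 3 and null 4, 12 of 13 were lower with a median of -0.22, and Fbxw27 was the exception in both this and the lower range. Leaving out each pool in turn gave a median of the group of 14 from -0.41 to -0.26.

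Markers of other cells also differed between the pools. The mean log2 level of the oviduct markers was 7.04, 6.38 and 5.98 in WT pools 1 to 3 and 6.81, 7.38, 6.79 and 7.82 in null pools 1 to 4, and that of the blood markers was 6.91, 4.94 and 6.29 against 5.50, 6.86, 7.43 and 4.05. Cumulus means were high in null 3 and null 4, the lowest pools of the cluster. The oocyte means were also lowest in null 3 (14.52) and null 4 (14.51). The oviduct mean of null 3 was below that of WT 1, and the blood mean was highest in null 3 and lowest in null 4. Of 28 cumulus and granulosa markers 25 were tested, 19 of them higher in null pools, with a median difference of 0.36, and their summed counts ranged from 124173 to 147883 in WT and from 129683 to 150891 in null pools. Of 9 oviduct markers 8 were tested, 7 of them higher, with a median of 0.57 and sums of 21090 to 31039 against 29752 to 37304. Of 19 oocyte markers 18 were tested, 10 of them higher, with a median of 0.03 and sums of 1101337 to 1170410 against 1139156 to 1275641. Of 7 blood markers 3 were tested, 1 of them higher, with a median of -0.51 and sums of 268 to 597 against 197 to 2584. The haemoglobin genes of that list (Hbb-bs, Hbb-bt, Hba-a1 and Hba-a2) were absent under these symbols, so the blood values do not cover them. No marker of the table was at 0 in every pool. WT 1 shared a high cumulus mean (9.22) with null 3 (9.27), and their cluster means were 13.55 and 13.15 on the log2 scale. With the cumulus mean as a covariate the median of the cluster was -0.24, with 12 of 13 genes lower. Beyond that fit, the part of these cells in the result was not tested.

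**Figure D3:**
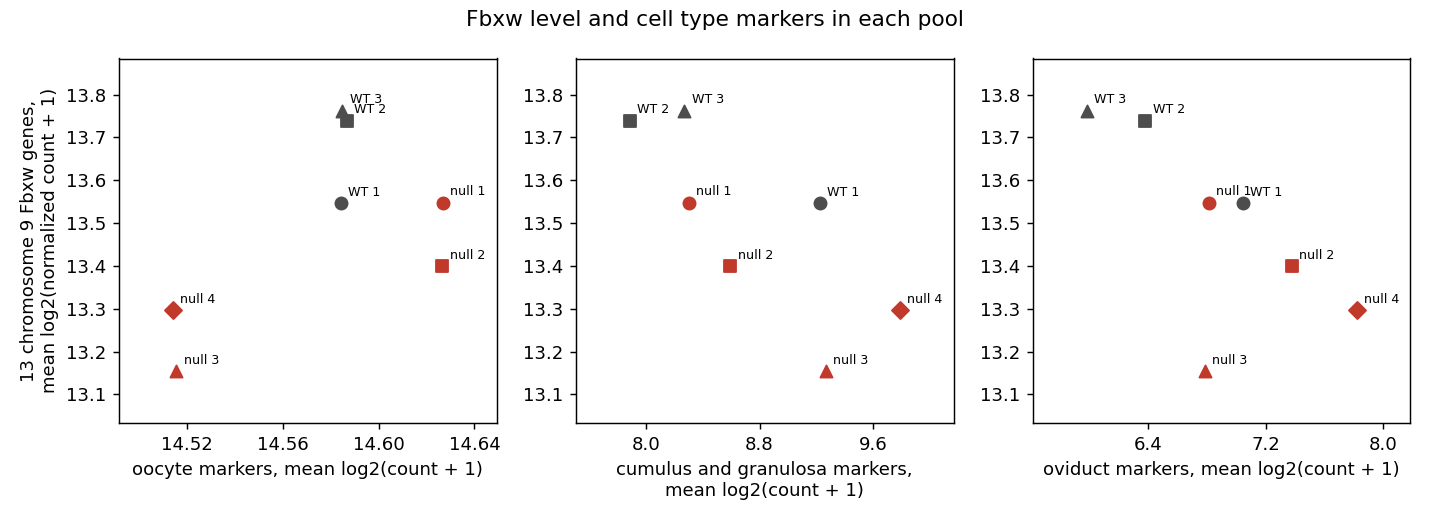
Mean log2(normalised count + 1) of the 13 chromosome 9 Fbxw genes in each pool against the means of the oocyte, cumulus and granulosa, and oviduct markers, 1 symbol a pool. Cluster means run from 13.15 in null 3 to 13.76 in WT 3, oocyte markers span 14.51 to 14.63 and cumulus markers 7.88 to 9.79.

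Genes beside the cluster, which the choice of members did not use, went in both directions. The cluster was chosen for its common direction, so nothing is read from a contrast between it and these genes. Within 1000000 bases on either side, 50 genes that are not F-box genes were tested, 26 lower and 24 higher in null pools, with a median of -0.02. None was called by limma, edgeR or DESeq2 (limma called 0.0664% of all tested genes), and 4 had an unadjusted limma p under 0.05, against 10.2% of all genes. Usp4, which encodes a deubiquitinating enzyme, had the smallest p, with 6147, 6814 and 6236 normalised counts in the WT pools against 4902, 5561, 4794 and 5343 in the null pools (log2 difference -0.31 ± 0.11, limma adjusted p = 0.330). Every null pool of Usp4 was below every WT pool. Wdr6 (2.37 ± 0.99) and the laminin gene Lamb2 (1.07 ± 0.45) followed, each with a limma adjusted p of 0.437 and with low counts in Wdr6, at most 97.3 in any pool. Plxnb1, the gene nearest to the cluster at 19.5 kb, had a difference of -0.03 ± 0.15.

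**Figure D4:**
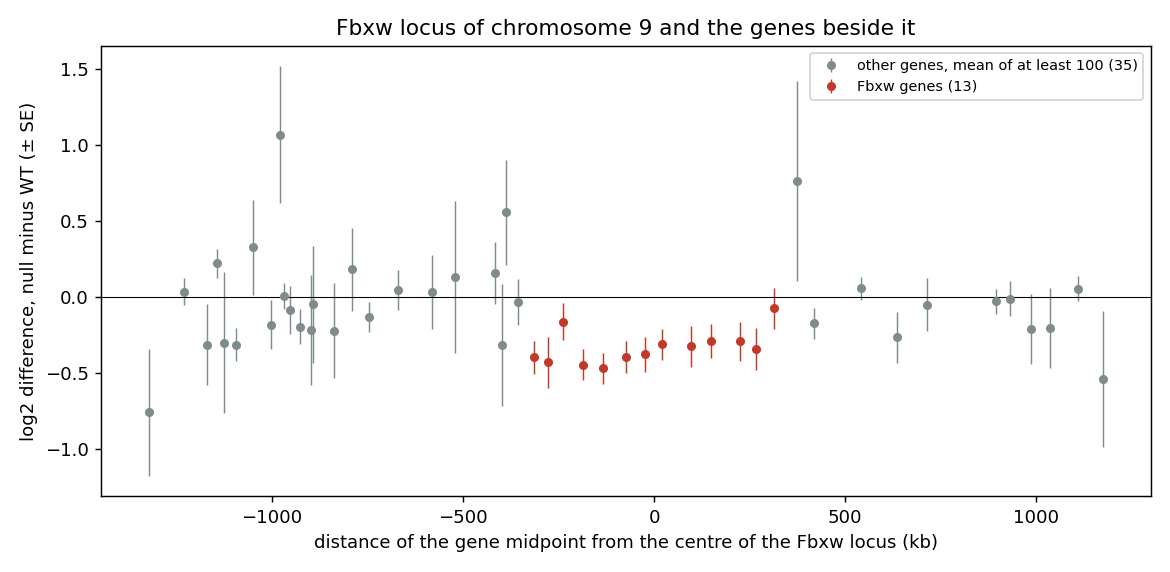
Log2 difference, null minus WT (± SE), of the 13 chromosome 9 Fbxw genes (red) and of the 35 tested genes beside them with a mean normalised count of at least 100 (grey), against the distance of each gene's midpoint from the centre of the cluster in kb. The red points lie between -0.47 and -0.08, and the grey points scatter from -0.76 to 1.07 around a median of -0.05.

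Among the F-box genes outside the group, no difference passed the test. Of 62 tested genes 28 were lower and 34 higher in null pools, and the median was 0.02. limma, edgeR and DESeq2 each called 0 of 62, where they called 0.0664%, 0.0464% and 1.29% of all genes, and 5 of 62 had an unadjusted limma p under 0.05. In the group of 14, limma and edgeR called 0 and DESeq2 called 4, namely Fbxw28, Fbxw14, Fbxw22 and Fbxw21, a count from the contrast that chose the group. Fbxo2 and Fbxl15 were near 0 and stayed under the filter of a mean of 10. Of the 62 genes, 4 had every null pool below and 6 every null pool above the WT pools, beside 5.16% and 4.74% of all genes. The 13 that were as abundant as the lowest cluster gene ranged from -0.18 to 0.24 around a median of 0.00, 6 of them lower, and the groups overlapped in each.

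**Figure D5:**
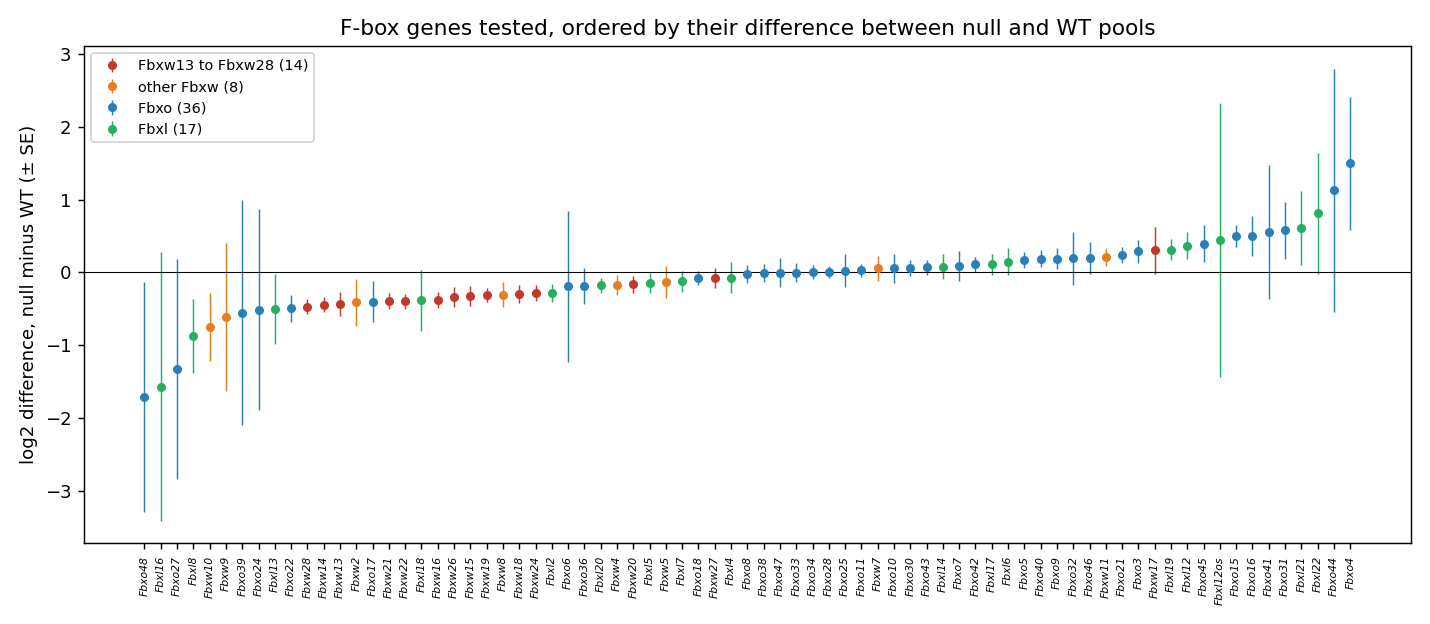
Log2 difference, null minus WT (± SE), of 75 tested F-box genes in ascending order, coloured by subfamily. Of the 14 red points 13 lie below 0, while the 61 other genes drawn lie on both sides of 0 and those with large differences have large standard errors.

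Medians of the other subfamilies lay closer to 0 than that of the group, which is given without a test. The 8 other Fbxw genes, receptors with WD40 repeats that are conserved beyond rodents, had a median of -0.24 with 6 lower. They include Fbxw7, whose protein targets cyclin E for degradation, with a difference of 0.05 ± 0.17, and Fbxw11, a β-TrCP gene, with 0.21 ± 0.12. Fbxw8 (-0.31 ± 0.17) and Fbxw10 (-0.75 ± 0.46) had every null pool below the WT pools, and Fbxw11 every null pool above them. These were 25.0% and 12.5% of the 8 genes, beside 5.16% and 4.74% of all genes. Of the 8, 0 had an unadjusted limma p under 0.05. The 36 Fbxo genes had a median of 0.06 with 13 lower, and the 18 Fbxl genes a median of 0.00 with 9 lower.

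The inhibitors of the APC/C were abundant, and no difference in them passed the test. Fbxo43 had 21773, 26938 and 28852 normalised counts in the WT pools against 26988, 31302, 25417 and 24456 in the null pools (log2 difference 0.07 ± 0.11, limma adjusted p = 0.867). Its groups overlapped widely, and the 95% interval of the difference ran from -0.16 to 0.30. Fbxo5, which encodes the related EMI1, had 3854, 4263 and 3414 against 4354, 4279, 4260 and 4348 (0.17 ± 0.12, adjusted p = 0.654). All 4 null pools of Fbxo5 lay close together, and WT 2 lay among them. The difference of Fbxo5 was 0.09 without WT 3.

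Fbxo15 had the smallest p outside the group. It is known as a transcript of pluripotent stem cells and had 1916, 2268 and 2634 normalised counts in the WT pools against 4063, 2901, 3087 and 2844 in the null pools (log2 difference 0.50 ± 0.16, limma adjusted p = 0.292). Every null pool was above every WT pool, with null 1 far above the others. Within the library-number ranges the difference was 0.72 in the lower and 0.17 in the higher. Fbxo22, whose protein targets histone demethylases of the KDM4 family, had 2490, 1582 and 2158 against 1617, 1460, 1603 and 1168 (-0.49 ± 0.18, adjusted p = 0.379). WT 2 lay among the null pools, and Fbxo22 overlaps the opposite-strand gene Nrg4.

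The Fbxl genes with the smallest p went both ways. Fbxl2, whose protein is anchored to membranes by a lipid and targets an inositol trisphosphate receptor, had 3909, 3762 and 3467 against 2842, 3235, 2949 and 3164 (-0.28 ± 0.12, limma adjusted p = 0.437). Fbxl19, whose protein binds CpG islands, had 1836, 1976 and 1749 against 2077, 2448, 2332 and 2366 (0.31 ± 0.14, adjusted p = 0.463). The groups overlapped in neither. Fbxl12 (0.37 ± 0.19, adjusted p = 0.540) also had every null pool above the WT pools. Fbxo21 (0.24 ± 0.11, adjusted p = 0.477) and Fbxo3 (0.29 ± 0.16, adjusted p = 0.565) overlapped through null 4, their lowest null pool. Exons of Fbxl2 overlap Ubp1, those of Fbxl12 overlap Ubl5 and those of Fbxo3 overlap 4931422A03Rik, each on the opposite strand.

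The other abundant Fbxo genes had differences near 0. Fbxo11 differed by 0.03 ± 0.09, Fbxo34 by 0.00 ± 0.09 and Fbxo28 by 0.01 ± 0.08 on the log2 scale, and these 3 signs turned when all pools were scaled to equal medians, as did that of Fbxo30 (0.06 ± 0.11). Fbxo18, which encodes the DNA helicase FBH1, differed by -0.08 ± 0.10. Their WT and null pools overlapped, with limma adjusted p from 0.826 for Fbxo18 to 0.993 for Fbxo34. By role, the 4 genes linked to muscle atrophy had a median of 0.12 with 4 higher, the 4 tested sugar-binding genes a median of -0.30 with 3 lower, and the iron sensor Fbxl5 a difference of -0.14 ± 0.13. The 4 genes linked to mitochondria had a median of 0.01. The pair Fbxl2 and Fbxl20 had a median of -0.23, and of 3 genes listed as linked to chromatin only Fbxl19 was in the table under its listed symbol. None of these was called.

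The partners of F-box proteins were measured as a list of 33 genes of the SCF core and of neddylation, the modification that activates cullins. In null pools 26 were lower and 7 higher, the median was -0.05, and 0 were called by limma, edgeR or DESeq2, with 3 (9.09%) at an unadjusted limma p under 0.05, a share near the 10.2% of all genes. Skp1a (0.06 ± 0.08), Cul1 (-0.05 ± 0.13) and Rbx1 (0.07 ± 0.17), the invariant subunits, had differences under their standard errors. Gps1, a subunit of the COP9 signalosome, which removes NEDD8 from cullins, had 3975, 4324 and 4327 normalised counts in the WT pools against 2783, 3495, 2522 and 3380 in the null pools (-0.48 ± 0.14, limma adjusted p = 0.240). Nae1, a subunit of the enzyme that activates NEDD8, had 7354, 9438 and 9937 against 6920, 7102, 6502 and 7043 (-0.36 ± 0.11, adjusted p = 0.292). Both had every null pool below every WT pool, as did 3 of the 33 genes and 5.16% of all genes. Cops6, another signalosome subunit, overlapped between groups (-0.39 ± 0.17, adjusted p = 0.464), and its difference was -0.22 without WT 2, -0.61 within the lower and -0.02 within the higher library numbers. Of 8 genes of other cullin ligases 7 were lower, with a median of -0.08. The exception, Rnf7, was higher in every null pool than in every WT pool and had the only unadjusted limma p under 0.05 of the list (1.00 ± 0.29, limma adjusted p = 0.252). Each of these was 12.5% of the list, beside 4.74% and 10.2% of all genes, and limma called none of the list.

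F-box genes with other symbols were 7 of 9 in the table, with 4 lower and 3 higher. Btrc, the other β-TrCP gene, had 13492, 16589 and 14658 against 12660, 12180, 9742 and 10745 (log2 difference -0.40 ± 0.11). Every null pool was below every WT pool. limma did not call it (adjusted p = 0.219), nor did edgeR (adjusted p = 0.273), and DESeq2 did (adjusted p = 0.041). Kdm2b, an H3K36 demethylase with an F-box, differed by -0.20 ± 0.09 (limma adjusted p = 0.457) without overlap, and Lmo7 by 0.06 ± 0.07 (adjusted p = 0.836).

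Of 39 genes listed as known SCF substrates 18 were lower and 21 higher, with a median of 0.01, none was called by limma, edgeR or DESeq2, and 5 (12.8%) had an unadjusted limma p under 0.05, beside 10.2% of all genes. Ccnd2, the cyclin D2 gene, had 230, 136 and 18.1 normalised counts in the WT pools against 326, 295, 796 and 1111 in the null pools (log2 difference 2.68 ± 0.68, limma adjusted p = 0.190). Ccne1, the cyclin E1 gene, had 324, 418 and 345 against 140, 205, 81.4 and 132 (-1.44 ± 0.40, adjusted p = 0.225). Neither gene overlapped between groups, and Ccnd2 was highest in null 3 and null 4, which also had the highest cumulus means (9.27 and 9.79). The part of cumulus cells in it was tested only as a covariate, which gave 2.00. The Ccnd2 difference was 0.81 within the lower and 5.62 within the higher library numbers, and 1.61 without WT 3. Atf4, a stress-response transcription factor, differed by 0.43 ± 0.15 (adjusted p = 0.369), with null 2 below WT 1.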

How the data were processed

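Each value of the deposited gene table is a signal, named as a DESeq2 normalised count, which is a read count divided by the pool's size factor. Whole reads were recovered for 100% of values (tolerance 0.01). Per the submitters' processing notes the tools included TopHat2 2.0.9, HTSeq, STAR 2.5.0a, featureCounts 1.5.0-p1 and DESeq2 1.22.2, and GRCm38 and mm10 were the builds. The counter behind the table, its use of strand and the read length: not given in the sources used here. A table of 18430 transcripts was not used. RNA was amplified before sequencing, so reads are not independent molecules.

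Null minus WT was tested on log2(normalized count + 1) by limma 3.58.1 (R 4.3.3) with a trended variance, over the 15071 genes with a mean of at least 10, with Benjamini-Hochberg adjustment and calls under 0.05. Fold changes on this scale understate the change of low genes. It had 5 residual and 10.9 prior degrees of freedom, and the median standard error was 0.277. edgeR 4.0.16 and DESeq2 1.42.0 were run on the recovered reads; adjusted p values of 460 genes were NA in DESeq2 and were kept so. The limma, edgeR and DESeq2 tests were tried in their main settings on simulated counts, and the alternative settings were not. Pools of a group differed beyond sampling noise (lowest chi-square 38.2 per degree of freedom). P values measure the spread between these pools.

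Positions, exon lengths and transcripts came from GENCODE M21 (GRCm38), in which 78 of 78 members were found. Members and lists were chosen with earlier results of these data known. Genes were named by rule: all Fbxw13 to Fbxw28 genes, Fbxo5, Fbxo43, the 8 other F-box genes with the smallest limma p, the 6 with the highest WT level per kilobase, the 3 genes with the smallest p of each of 3 lists and beside the cluster, Skp1a, Cul1, Rbx1 and Nlrp2. Genes outside it (Fbxw7, Fbxw8, Fbxw10, Fbxw11, Fbxl5, Plxnb1, Rnf7) were named after their values were seen. One gene that the rule takes is not reported here. Protein sequences, planned for the comparison of members, were not used here, and transcripts were compared in their place.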

Additional observations from a re-analysis of the deposited data

Results flagged for a closer look

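Fbxw19 was noted because 1 null pool stood apart from the others. Null 1 had 19131 normalised counts, while the other 3 null pools had 14854 to 14982, and the gap took 0.970 of the range of the null pools. Kdm2b was noted for the same reason, with 21434 normalised counts in null 3, up to 23738 in the other null pools and a gap of 0.979 of the range. These were 2 of 46 gene groups looked at, and chance alone flags about 1 in 20.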

How the results depend on the processing

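The median log2 difference of the Fbxw13 to Fbxw28 group was below 0 under all 23 alternatives. It was -0.33 as reported, -0.58 within the higher library numbers, -0.19 within the lower ones, and -0.41 to -0.26 with each pool left out in turn. The group was chosen as lower in null pools, and every alternative used these same pools or a part of them. Its sign under the alternatives is therefore a description and no support for the difference. Fbxw27 turned above 0 in 5 of 22 alternatives, among them without WT 3 (0.01) and without null 3 (0.02). The number of the group's genes called was 0, but 4 in DESeq2 and 0 to 1 with each pool left out in turn (1 without null 1). Over all genes, 10 were called, against 188 in DESeq2, 19 with the cumulus covariate, 6 with equal medians, 0 without a variance trend, 0 without null 3 and null 4, and 2 to 16 with each pool left out in turn (2 without null 3, 4 without null 4 or WT 2, 5 without WT 3, 16 without null 1). Nlrp2 kept its difference but missed the threshold without a variance trend (limma adjusted p = 0.316), and its limma adjusted p was 0.133 when null 3 and null 4 were left out. The numbers of the pools did not pair them (correlations of same-numbered pools -0.16, 0.02 and -0.01), and with the replicate block 1 gene was called and Cul1 differed by 0.057. Of the 62 tested members outside the group, chosen by symbol, none was called in any of 20 alternatives with a test, whereas DESeq2 called Btrc, an F-box gene with another symbol.

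The median of the SCF core list (-0.05) was -0.11 with equal medians, -0.15 within the higher and -0.011 within the lower library numbers, and -0.10 to -0.021 with each pool left out in turn. Differences near 0 that were not called changed sign. Cul1 was 0.12 with the cumulus covariate and 0.10 without null 3 and null 4. With equal medians Fbxo11 was -0.033, Fbxo34 -0.056, Fbxo28 -0.050, Fbxo30 -0.0020 and Lmo7 -0.0031. With each pool left out in turn Fbxo43 ranged from -0.051 to 0.15, Fbxo11 from -0.065 to 0.087, Fbxo34 from -0.049 to 0.070, Fbxo28 from -0.042 to 0.066, Fbxo30 from -0.028 to 0.14, Cul1 from -0.22 to 0.059 and Rbx1 from -0.032 to 0.17. The cause of these changes was not tested. Taken over genes together, the spread between pools of a group exceeded sampling noise. The part of read depth in the precision of single genes was not tested.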
